A study of Mus musculus with 6 samples.

Results

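The Scgb1b and Scgb2b secretoglobin genes were described in RNA sequencing libraries of mouse lacrimal gland, the main gland that secretes the watery part of tears. Members were all identifiers of the deposited count table whose symbol in GENCODE mouse release 21 begins with Scgb1b or Scgb2b. This gave 64 genes of 55401 identifiers, 31 named Scgb1b and 33 named Scgb2b. The annotation marks 16 of the Scgb1b and 19 of the Scgb2b members as pseudogenes. They were kept, and 8 of these 35 are listed as protein coding by RefSeq. Where the symbol of an annotated pseudogene lacks the ending -ps, this is said where its values are first given. Polyadenylated RNA was sequenced from 3 lacrimal gland samples of ICR mice, an outbred stock labelled as the control, and 3 of NOD/Ltj mice, an inbred strain that develops autoimmune inflammation of tear and salivary glands. The labels name no engineered allele and no treatment. The labels gave neither age nor sex and did not say that the samples were from different animals. The p-values therefore measure the spread between these samples, which may be technical.

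Secretoglobins are small secreted proteins that pair through disulfide bonds into dimers with a pocket for hydrophobic ligands such as steroids. In the mouse, an Scgb1b protein forms the alpha chain and an Scgb2b protein the beta or gamma chain of androgen-binding protein, which is released into tears and saliva and takes part in scent communication. The genes lie in one large cluster that grew by repeated duplication of alpha and beta-gamma gene pairs, so many members are close copies of each other.

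In the GRCm38 annotation, all members lie on chromosome 7 between positions 31255891 and 34100837, a stretch of 2.84 megabases. The genome build behind the deposited counts was not given in the sources used here, so these positions are those of the reference annotation. How alike the copies are decides which of them can be told apart by their counts. Coding sequences were taken from the GENCODE release 21 transcripts. The abundant alpha chain genes Scgb1b7, Scgb1b20, Scgb1b3 and Scgb1b2 each had a coding sequence of 282 bases, with 93 codons before the stop. Scgb1b20 differed from Scgb1b7 at 3 bases (98.9% identity), Scgb1b3 at 11 (96.1%) and Scgb1b2 at 44 (84.4%). Scgb1b29, the remaining abundant one, had a coding sequence identical to that of Scgb1b7.

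The sequences printed here are of beta-gamma chains, read 5′ to 3′ from the start codon. Scgb2b20 is given first, followed by its close relative Scgb2b7, and then by Scgb2b12 and its copy Scgb2b19, whose level varied far more from library to library. Bases 1 to 300 of each are shown, and capitals mark differences from Scgb2b20.
Scgb2b20: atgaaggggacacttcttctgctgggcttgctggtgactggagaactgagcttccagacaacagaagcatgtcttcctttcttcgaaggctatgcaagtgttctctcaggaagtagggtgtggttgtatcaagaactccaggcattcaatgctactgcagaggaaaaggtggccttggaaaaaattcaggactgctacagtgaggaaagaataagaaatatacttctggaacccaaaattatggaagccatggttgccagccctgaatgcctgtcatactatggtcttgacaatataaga
Scgb2b7: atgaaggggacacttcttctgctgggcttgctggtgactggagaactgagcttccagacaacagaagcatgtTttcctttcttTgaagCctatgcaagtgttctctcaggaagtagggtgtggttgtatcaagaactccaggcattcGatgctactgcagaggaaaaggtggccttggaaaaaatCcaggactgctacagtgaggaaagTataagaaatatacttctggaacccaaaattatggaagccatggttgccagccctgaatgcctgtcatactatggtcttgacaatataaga
Scgb2b12: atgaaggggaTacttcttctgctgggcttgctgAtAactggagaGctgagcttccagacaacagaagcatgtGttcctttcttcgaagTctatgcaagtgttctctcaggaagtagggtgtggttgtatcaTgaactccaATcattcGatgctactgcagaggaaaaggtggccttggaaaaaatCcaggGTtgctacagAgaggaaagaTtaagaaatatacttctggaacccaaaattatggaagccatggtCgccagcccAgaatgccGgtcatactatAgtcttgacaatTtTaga
Scgb2b19: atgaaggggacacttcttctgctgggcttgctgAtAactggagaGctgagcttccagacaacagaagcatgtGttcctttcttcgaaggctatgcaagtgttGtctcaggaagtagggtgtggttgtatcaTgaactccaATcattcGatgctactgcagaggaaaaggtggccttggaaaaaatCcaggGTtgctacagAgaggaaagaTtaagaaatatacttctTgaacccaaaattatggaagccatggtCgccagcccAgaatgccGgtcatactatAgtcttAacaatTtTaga

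Over the whole coding sequence of 339 bases, Scgb2b7 differed from Scgb2b20 at 6, Scgb2b12 at 23 and Scgb2b19 at 24. The last pair shows the 1 member that was called different between the strains. Scgb2b1 (ENSMUSG00000101554, chromosome 7 from 31263757 to 31265768, plus strand) is annotated as an unprocessed pseudogene by GENCODE and as protein coding by RefSeq. Bases 1 to 300 of its 338-base transcript are shown after the same stretch of the coding sequence of Scgb2b2, with capitals for bases that differ from Scgb2b2 or have no counterpart in it.
Scgb2b2: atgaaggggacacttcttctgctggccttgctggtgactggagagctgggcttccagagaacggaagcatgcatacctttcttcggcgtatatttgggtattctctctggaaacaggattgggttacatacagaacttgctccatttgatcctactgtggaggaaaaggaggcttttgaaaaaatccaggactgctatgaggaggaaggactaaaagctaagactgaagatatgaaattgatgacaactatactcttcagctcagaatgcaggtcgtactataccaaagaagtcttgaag
Scgb2b1: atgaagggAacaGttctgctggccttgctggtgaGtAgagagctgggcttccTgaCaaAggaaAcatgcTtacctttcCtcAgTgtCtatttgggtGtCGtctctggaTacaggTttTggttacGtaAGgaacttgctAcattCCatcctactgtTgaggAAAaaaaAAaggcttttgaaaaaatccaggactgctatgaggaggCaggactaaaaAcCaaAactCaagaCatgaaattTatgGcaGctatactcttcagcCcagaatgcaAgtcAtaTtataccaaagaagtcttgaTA

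The Scgb2b1 transcript begins with ATG and reads 109 codons before an in-frame stop, against 114 in Scgb2b2. Over 335 aligned bases it differed from Scgb2b2 at 50 (85.1% identity). No stretch of 150 bases, the length of a read, was shared between Scgb2b1 and any other gene.

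Transcripts of these subfamilies took a large share of the polyadenylated RNA in both strains. The libraries held between 58426580 and 76554340 estimated counts. The 64 members held 23.6, 44.0 and 36.5% of all counts in ICR 1, 2 and 3, and 49.1, 41.1 and 45.8% in NOD 1, 2 and 3. The means were 34.7% ± 10.3 and 45.3% ± 4.05 (SD, n = 3 each). ICR 1 stood lowest, and the ICR and NOD/Ltj libraries overlapped, since ICR 2 lay above NOD 2.

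Levels are given as CPM, counts scaled to a common library size, after a correction by TMM, a method that sets most genes level between libraries. Summed over the alpha chains, Scgb1b stood at 83806, 230295 and 182276 CPM in the ICR libraries and at 267020, 166066 and 213665 in NOD/Ltj. The ratio of the group means, NOD/Ltj over ICR, was 1.30. Summed over the beta-gamma chains, Scgb2b stood at 115114, 314019 and 216903 CPM in ICR and 306388, 161412 and 218229 in NOD/Ltj, a ratio of 1.06. In both sums ICR 1 was the lowest library and the groups overlapped, and each ratio was small beside the spread within a strain, with SDs of 74678 and 99462 CPM in ICR and 50504 and 73050 in NOD/Ltj. Without ICR 1 the log2 ratios were 0.06 for Scgb1b and −0.22 for Scgb2b, against 0.38 and 0.09 with all libraries.

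Few genes made up each sum. The 5 genes Scgb1b2, Scgb1b3, Scgb1b7, Scgb1b20 and Scgb1b29 held between 98.0 and 99.3% of the Scgb1b counts of a library. The 10 most abundant Scgb2b genes held between 96.9 and 99.2% of the Scgb2b counts. Members annotated as pseudogenes held 0.0305 to 0.0986% of the Scgb1b counts but 1.37 to 7.44% of the Scgb2b counts, where Scgb2b10 held a mean of 3.07% and Scgb2b30 of 1.03% in ICR, and 0.692 and 0.610% in NOD/Ltj.

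**Figure D1:**
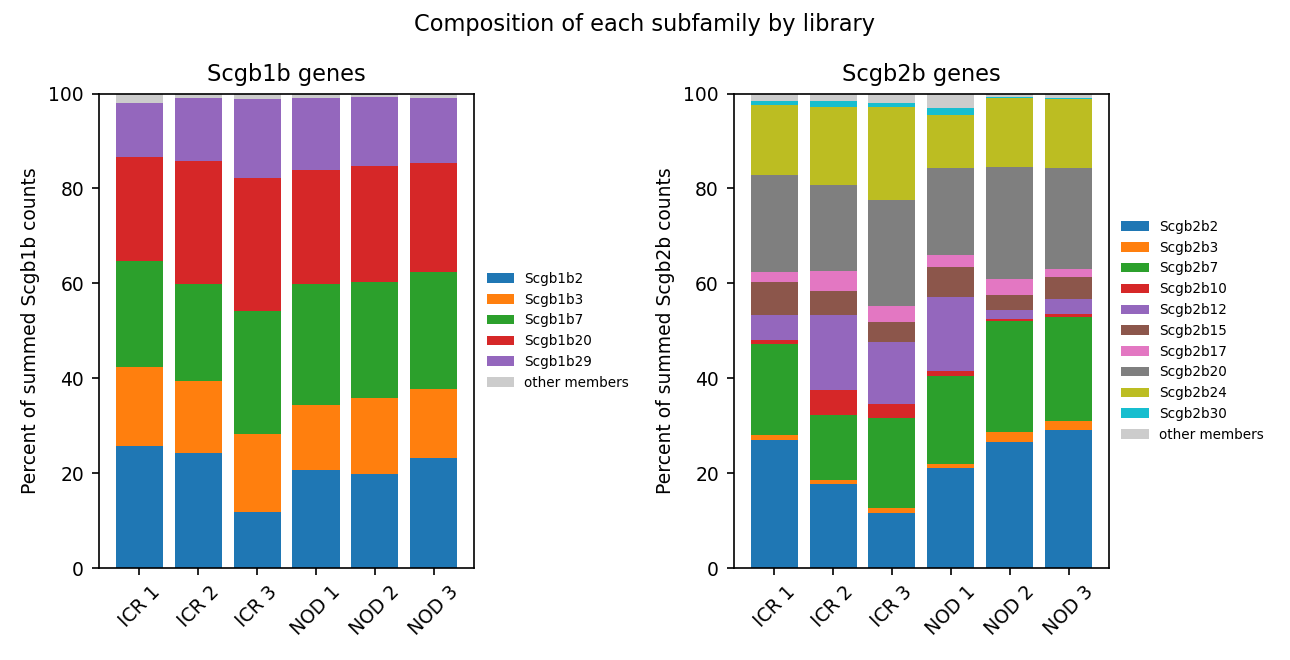
Percent of the summed Scgb1b counts (left) and of the summed Scgb2b counts (right) held by each named gene in each of the 6 libraries, with all other members in grey. The Scgb1b bars are alike apart from Scgb1b2, which is thinnest in ICR 3 (11.8%), while the Scgb2b12 segment runs from 1.95% in NOD 2 to 15.9% in ICR 2.

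Among the alpha chains, Scgb1b20 stood at 18274, 60055 and 51312 CPM in ICR and 64224, 40590 and 48870 in NOD/Ltj. Scgb1b7 stood at 18776, 47077 and 46938 CPM in ICR and 67912, 40762 and 52666 in NOD/Ltj, and Scgb1b29 at 9634, 30374 and 30288 and at 40679, 24171 and 29616. These close copies were lowest in ICR 1 and highest in NOD 1, with overlapping strains. Scgb1b3 stood at 13998, 34888 and 30091 CPM in ICR and 36803, 26597 and 31225 in NOD/Ltj, the same order of lowest and highest library. Scgb1b2 stood at 21474, 55753 and 21509 CPM in ICR and 55070, 32754 and 49456 in NOD/Ltj. Here ICR 3 was as low as ICR 1, so the share of Scgb1b2 among the Scgb1b counts was 11.8% in ICR 3 and 19.7 to 25.6% in the other libraries.

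Among the beta-gamma chains, Scgb2b2 stood at 31065, 55767 and 25057 CPM in ICR and 64440, 42887 and 63656 in NOD/Ltj. It was lowest in ICR 3, where Scgb1b2, its neighbour in the cluster, was also low, and the strains overlapped. The exons of Scgb2b2 and Scgb1b2 overlap by 55 bases on opposite strands. The libraries were strand-specific, but the strand setting of the counting was not given in the sources used here, so reads from that overlap cannot be assigned with certainty. Scgb2b20 stood at 23599, 57052 and 48542 CPM in ICR and 56048, 38121 and 46866 in NOD/Ltj, and Scgb2b7 at 21839, 42719 and 40954 and at 56392, 37703 and 48230. Scgb2b24 stood at 16812, 51845 and 42205 CPM in ICR and 34544, 23442 and 31519 in NOD/Ltj. All 3 were lowest in ICR 1, with overlapping strains.

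Several of the remaining abundant beta-gamma genes varied more. Scgb2b12 stood at 6200, 49793 and 28365 CPM in ICR and 48274, 3146 and 6781 in NOD/Ltj. Scgb2b10, an annotated pseudogene, stood at 971, 16835 and 6497 CPM in ICR and 3064, 777 and 1295 in NOD/Ltj. The highest library exceeded the lowest 15.8-fold for Scgb2b12 and 21.7-fold for Scgb2b10, against 2.42-fold for Scgb2b20. Scgb2b15 stood at 7908, 15712 and 8921 CPM in ICR and 19454, 5202 and 10283 in NOD/Ltj. Scgb2b17, with the same coding sequence as Scgb2b15, stood at 2502, 12929 and 7511 CPM in ICR and 7315, 5217 and 3311 in NOD/Ltj. Both overlapped between the strains, with the highest library in NOD/Ltj for Scgb2b15 and in ICR for Scgb2b17. In the reference, all read-length stretches of Scgb2b15 also occur in Scgb2b17, and 86.2% of those of Scgb2b17 occur in Scgb2b15. The split of counts between these copies is therefore uncertain, and their contrast in highest library cannot be read as a difference between the genes. Scgb2b30, an annotated pseudogene, stood at 1070, 3833 and 2064 CPM in ICR and 4232, 292 and 586 in NOD/Ltj. Scgb2b3 stood at 1326, 2611 and 2575 CPM in ICR and 3045, 3313 and 3734 in NOD/Ltj. It was the only one of these 10 genes in which each NOD/Ltj library lay above each ICR library.

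**Figure D2:**
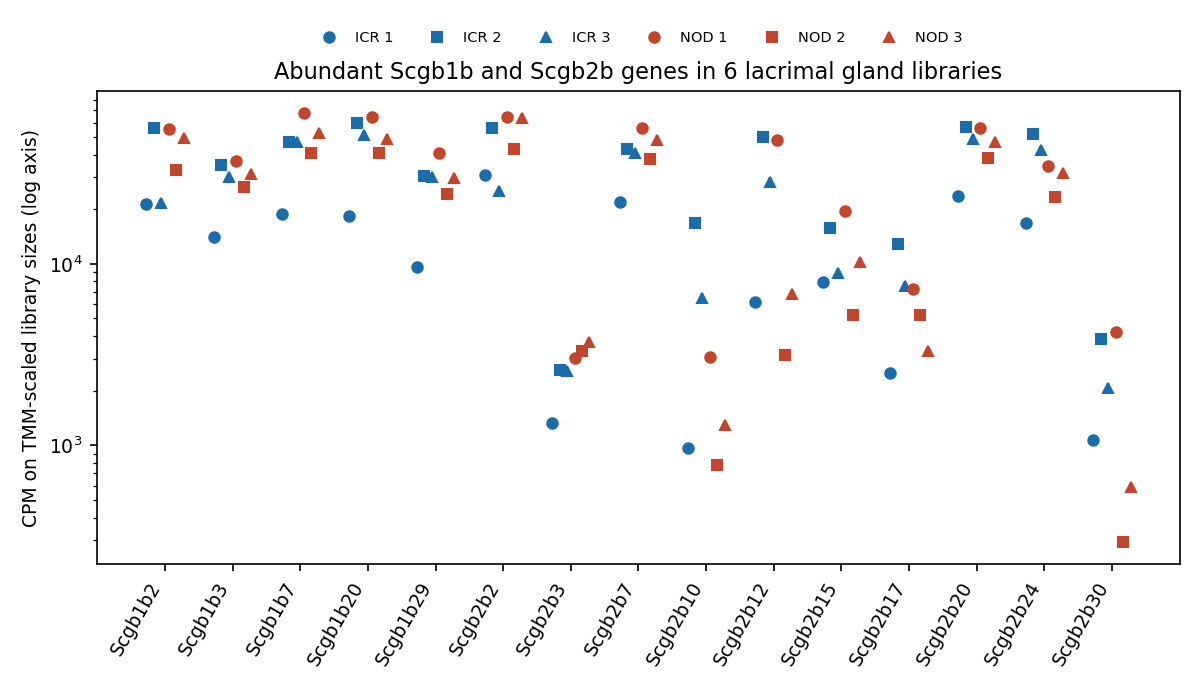
CPM on a log axis for the 15 members that held at least 1% of their subfamily's counts in a strain, with 1 point per library (blue for ICR, red for NOD/Ltj, marker shape for the replicate). The strains overlap for each gene except Scgb2b3, and Scgb2b10, Scgb2b12 and Scgb2b30 spread over more than 10-fold between libraries.

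Per kilobase of annotated exon, alpha and beta-gamma genes stood in the same range. In ICR the mean levels per kilobase were 102645 CPM for Scgb1b20, 89730 for Scgb1b7, 83093 for Scgb1b29, 82341 for Scgb2b20, 77622 for Scgb1b2 and 70658 for Scgb2b24. In NOD/Ltj they were 128354 CPM per kilobase for Scgb1b7, 121681 for Scgb1b20, 111661 for Scgb1b29, 107925 for Scgb1b2, 97260 for Scgb2b2 and 89889 for Scgb2b20. The highest of the 6 libraries exceeded the lowest by 2.42-fold or more in each of these genes, and neighbours in either order differed by less than the spread within a strain. The exon lengths are not equally complete: Scgb1b29 is annotated over its 282 coding bases alone. Scgb2b2 is annotated over 586 bases and Scgb2b7 over 938, each from a pair of transcripts.

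Because an alpha chain is joined to a beta-gamma chain in the protein, the balance of both sums was taken in each library. Summed Scgb2b counts were 1.37, 1.36 and 1.19 times the Scgb1b counts in ICR 1, 2 and 3, and 1.15, 0.972 and 1.02 times in NOD 1, 2 and 3. The means were 1.31 ± 0.103 and 1.05 ± 0.0905 (SD, n = 3 each). Each ICR library lay above each NOD/Ltj library, and the lowest ICR value and the highest NOD/Ltj value were close to each other. With pseudogenes left out, the ratios were 1.33, 1.26 and 1.13 in ICR and 1.09, 0.959 and 1.01 in NOD/Ltj. Per kilobase of exon, they were 0.954, 1.01 and 0.835 in ICR and 0.801, 0.648 and 0.685 in NOD/Ltj. The order of the strains was the same on each of these scales, while the side of 1 on which the balance fell depended on the scale. As a ratio over chosen members it was given no test.

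The numbering of the cluster pairs an alpha with a beta-gamma gene. Of 30 numbers carried by both subfamilies, 27 pairs were neighbours and 25 of these were also transcribed away from each other, with starts 4487 to 13765 bases apart (median 6960). All 30 pairs lay on opposite strands. Among the most abundant pairs, counts of the partners were close: Scgb2b counts were 0.87 to 1.29 times the Scgb1b counts over the 6 libraries for number 20, 0.83 to 1.16 times for number 7 and 1.00 to 1.45 times for number 2. Their exons differ in length, and per kilobase the mean levels in ICR were 82341 CPM for Scgb2b20 against 102645 for Scgb1b20, 63645 for Scgb2b2 against 77622 for Scgb1b2, and 37496 for Scgb2b7 against 89730 for Scgb1b7. On that scale number 7 was the furthest from balance. The exons of Scgb2b7 are annotated over 938 bases from 2 transcripts, against 523 bases from 1 for its near copy Scgb2b20. The part of this annotated length in the value of number 7 was not tested. In several other pairs, counts of 1 partner exceeded those of the other in every library. Scgb1b3 had 8.03 to 13.4 times the counts of Scgb2b3. Scgb2b24 had 26.6 to 56.0 times those of Scgb1b24, Scgb2b12 had 44.0 to 537 times those of Scgb1b12, and Scgb2b15 had 182 to 1402 times those of Scgb1b15. The larger partner was thus an alpha gene in some pairs and a beta-gamma gene in others. In number 27 it changed between libraries, with Scgb2b27 at 0.45 to 3.23 times the counts of Scgb1b27, and the same held for number 11, where Scgb1b11 was at 0 counts in 2 libraries.

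The comparison between the strains asked which members changed in the gland of NOD/Ltj mice. It was fitted over all 18537 genes with enough counts by edgeR's quasi-likelihood test, and a gene was called at a Benjamini-Hochberg adjusted p under 0.05. Of the 64 members, 48 could be tested (18 Scgb1b and 30 Scgb2b genes, 20 of them annotated pseudogenes). Scgb2b1 rose in NOD/Ltj, no member fell, and 47 were not called. Over all genes tested, 2.24% were called, 1.88% higher and 0.361% lower, so 1 call among 48 members is near the background share. At an unadjusted p under 0.05 there were 4 members (2 higher, 2 lower), where 13.1% of all genes passed. The log2 fold changes, NOD/Ltj over ICR, were positive for 25 members and negative for 23. Their median was 0.11 (0.25 for Scgb1b and −0.13 for Scgb2b), against −0.03 over all genes tested. The groups did not overlap in 3 tested members, namely Scgb2b1, Scgb2b3 and Scgb1b10, while 20.0% of all genes tested had groups that did not overlap.

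Scgb2b1 stood at 5.72, 7.50 and 16.5 CPM in ICR 1, 2 and 3 and at 65.2, 46.2 and 73.5 CPM in NOD 1, 2 and 3. In ICR these values rest on 396, 464 and 943 counts, and in NOD/Ltj on 3523, 3713 and 4853. Each NOD/Ltj library was above each ICR library. The log2 fold change was 2.64 ± 0.42 (SE, n = 3 each), which is 6.22-fold with a 95% interval from 3.15 to 12.3, at an adjusted p of 0.0238 by edgeR. With 1 library left out at a time the log2 fold change ran from 2.35 to 3.22. The call held without ICR 1 or ICR 3 and was lost without ICR 2, NOD 1, NOD 2 or NOD 3, with adjusted p between 0.0590 and 0.118. Scgb2b1 remained a minor transcript in NOD/Ltj, at 182 CPM per kilobase against 97260 for its closest relative, Scgb2b2.

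**Figure D3:**
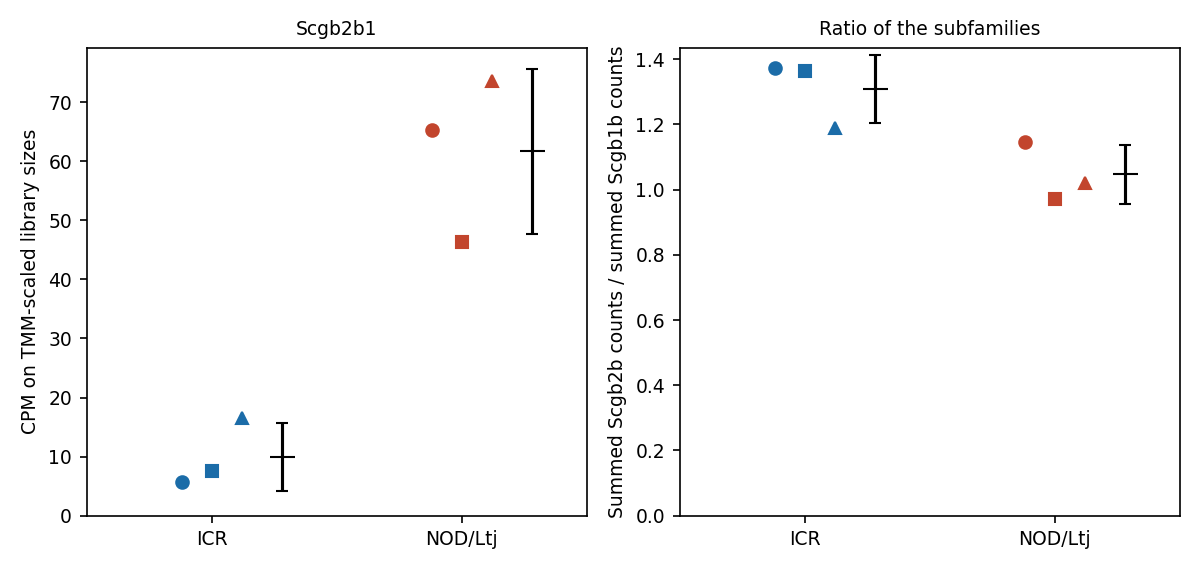
Left, Scgb2b1 in CPM for each library with the group mean and SD (bars, n = 3 each). Right, the ratio of summed Scgb2b to summed Scgb1b counts for each library with the mean and SD. Scgb2b1 lies at 5.72 to 16.5 CPM in ICR and 46.2 to 73.5 in NOD/Ltj, and the ratio lies at 1.19 to 1.37 in ICR and 0.972 to 1.15 in NOD/Ltj.

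Lymphocyte markers differed between the same groups. Of 7 B cell markers, 6 rose in NOD/Ltj, while 1.88% of all genes tested were called higher and 0.361% lower. The 7 markers summed to 2.08 to 6.03 CPM in ICR and 112, 468 and 312 CPM in NOD 1, 2 and 3. NOD 2, which had the highest B cell sum, had the lowest Scgb2b1 level of the NOD/Ltj libraries. The part of lymphocytes in the Scgb2b1 level was not tested. Of 9 acinar markers, genes of the secretory cells, none was called, with summed levels of 956 to 1317 CPM in ICR and 940 to 1123 in NOD/Ltj. Xbp1 and Bhlha15, transcription factors of secretory cells, made up most of that sum. Among the other markers, Aqp5, a water channel, stood at 82.3 to 108 CPM in ICR and 71.5 to 79.2 in NOD/Ltj. Slc12a2, an ion transporter, stood at 62.4 to 132 CPM in ICR and at most 53.2 in NOD/Ltj. Slc12a2, Barx2 and Aqp5 had lower values in each NOD/Ltj than in each ICR library. Their log2 fold changes were −1.29, −1.26 and −0.36 (adjusted p = 0.21, 0.18 and 0.49 by edgeR). Xbp1 was higher in each NOD/Ltj library, with a log2 fold change of 0.35 (adjusted p = 0.60 by edgeR). Over all genes tested, the groups did not overlap in 20.0%. In bulk tissue, a change in the number of cells of a type and a change in RNA per cell cannot be told apart.

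For the abundant members, the intervals spanned 0 and were wide. The log2 fold changes of the 5 abundant alpha chain genes lay between 0.25 (Scgb1b20, 95% interval −1.10 to 1.59) and 0.52 (Scgb1b7, −0.75 to 1.79), and none was called. Scgb2b2 had 0.61 (−0.59 to 1.82), Scgb2b7 0.43 (−0.70 to 1.57), Scgb2b20 0.13 (−1.08 to 1.33) and Scgb2b24 −0.31 (−1.57 to 0.96). Scgb2b3, with groups that did not overlap, had 0.63 ± 0.36 (SE, n = 3 each) at an adjusted p of 0.55 by edgeR. Scgb2b10 had the most negative value of the abundant genes, −2.24 ± 0.97 (SE, n = 3 each), at an adjusted p of 0.39. Scgb2b12 had −0.54 with an interval from −3.11 to 2.04.

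**Figure D4:**
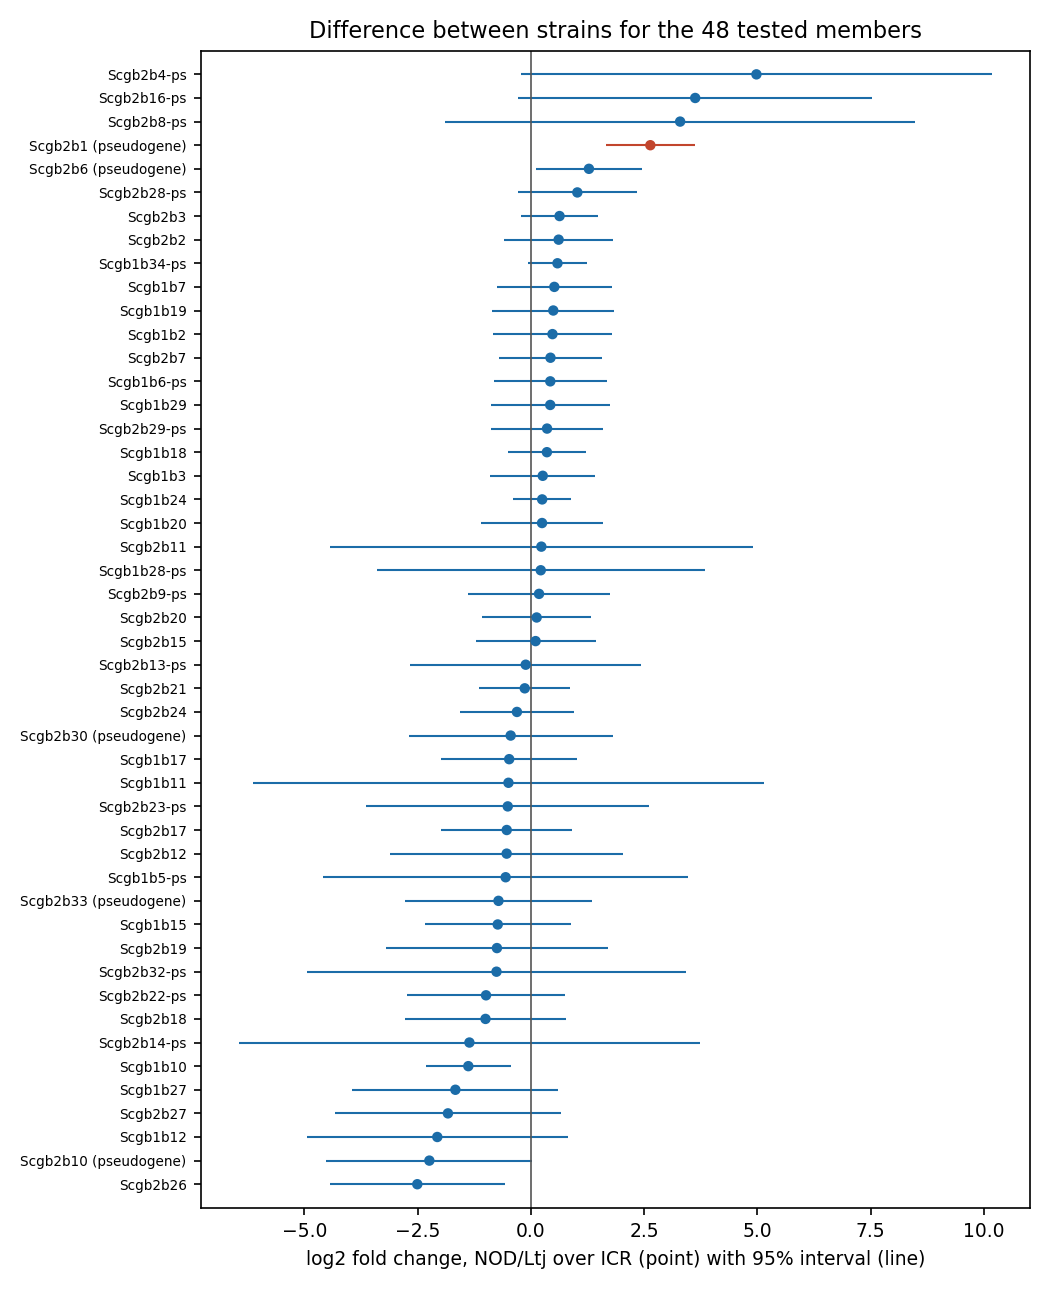
Log2 fold change, NOD/Ltj over ICR, of the 48 tested members with 95% intervals from edgeR's quasi-likelihood fit (red for the called gene). Only the Scgb2b1 point is called, and the intervals of most members with few or uneven counts span several log2 units on both sides of 0.

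Copies that are nearly identical were also summed, since the counting could have placed reads of a shared stretch in either copy. At an identity of at least 98% over at least 200 aligned bases, 35 of the 64 members fell into 14 groups. Of all members, 30 shared at least 1 stretch of 150 bases with another gene, 7 shared every such stretch, and 34 shared none. The pairs Scgb1b7 and Scgb1b29, Scgb1b11 and Scgb1b18, Scgb1b15 and Scgb1b17, and Scgb2b15 and Scgb2b17 had identical coding sequences. Within such pairs the counts could jump: in ICR Scgb1b11 had 40514, 0 and 14490 counts, and in NOD/Ltj 17490, 0 and 17865, while Scgb1b18 stayed between 5040 and 12244. No summed group was called (adjusted p from 0.36 to 0.997 by edgeR), and Scgb2b1, which belongs to no group, kept its call in that fit (adjusted p = 0.0235).

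The summed groups differed in how much they varied between libraries. Scgb2b7 and Scgb2b20 together stood at 45437, 99772 and 89496 CPM in ICR and 112440, 75824 and 95097 in NOD/Ltj, a 2.47-fold range over the 6 libraries. Scgb1b7, Scgb1b20 and Scgb1b29 together stood at 46684, 137506 and 128538 CPM in ICR and 172815, 105522 and 131152 in NOD/Ltj, a 3.70-fold range. Scgb2b12 and Scgb2b19 together stood at 6443, 51469 and 29886 CPM in ICR and 49964, 3258 and 7024 in NOD/Ltj. ICR 2, ICR 3 and NOD 1 were thus high and ICR 1, NOD 2 and NOD 3 low for this last pair, a split that runs across the strains, with a 15.8-fold range.

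The same libraries were high in several other groups, though not in all. Scgb2b30 and Scgb2b33, both annotated pseudogenes, together stood at 1769, 5568 and 3210 CPM in ICR and 6026, 477 and 786 in NOD/Ltj. Scgb2b11 and Scgb2b18 together stood at 37.6, 419 and 304 CPM in ICR and 845, 4.56 and 7.50 in NOD/Ltj, a 185-fold range. In both groups NOD 1 was highest and NOD 2 lowest. Scgb1b12 and Scgb1b19 together stood at 61.9, 713 and 575 CPM in ICR and 407, 125 and 105 in NOD/Ltj. The pseudogenes Scgb2b8-ps and Scgb2b13-ps together stood at 24.2, 278 and 117 CPM in ICR and 461, 22.9 and 51.8 in NOD/Ltj. In each of these 4 groups, ICR 2, ICR 3 and NOD 1 held the 3 highest values. The same 3 libraries were highest in the steadier group of Scgb2b10, Scgb2b15 and Scgb2b17, which had a 4.06-fold range. That group stood at 45476, 22929 and 29833 CPM in ICR 2, ICR 3 and NOD 1. Other groups were ordered differently: Scgb1b11 and Scgb1b18 together stood at 658, 165 and 412 CPM in ICR and 532, 113 and 456 in NOD/Ltj, and Scgb1b10, Scgb1b15 and Scgb1b17 together at 216, 195 and 111 and at 136, 42.3 and 59.6. Both were highest in ICR 1. The group of Scgb2b28-ps, Scgb2b29-ps, Scgb2b31-ps and Scgb2b32-ps was high in NOD 1 alone (865 CPM, against 188 to 306 in the others). Scgb2b9-ps, Scgb2b14-ps and Scgb2b16-ps together stood at 2.70, 18.5 and 34.6 CPM in ICR and 12.1, 20.5 and 23.6 in NOD/Ltj. This group thus varied widely too, over a 12.8-fold range, but NOD 1 lay below NOD 2 and NOD 3. ICR 2, ICR 3 and NOD 1 also had the 3 lowest TMM factors, 0.809, 0.914 and 0.857, against 1.06 to 1.26 in the others. Without TMM scaling, Scgb2b12 and Scgb2b19 took 0.763, 4.16 and 2.73% of the ICR counts and 4.28, 0.409 and 0.744% of the NOD/Ltj counts, so the same libraries were high as shares of the raw counts. The part of library composition in this pattern was not tested.

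**Figure D5:**
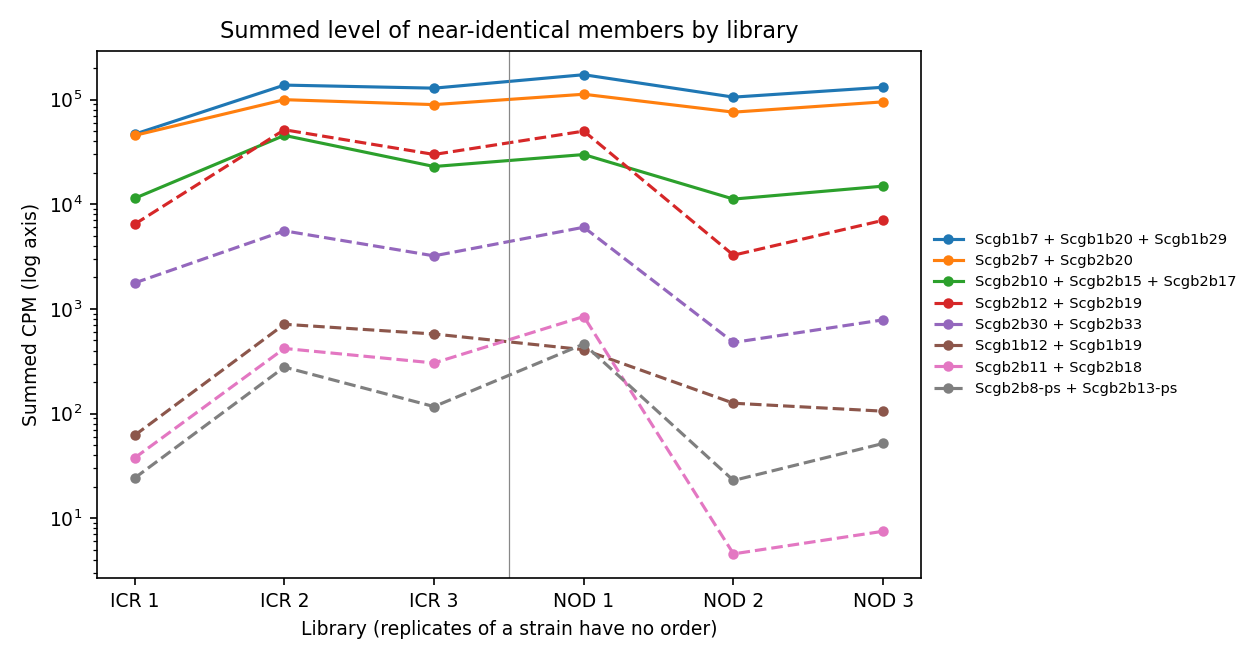
Summed CPM on a log axis of 8 groups of near-identical members in the 6 libraries, with lines to follow each group and a grey line between the strains. Solid lines vary by 2.47 to 4.06-fold and dashed lines by 11.5 to 185-fold. Each dashed line is higher in ICR 2, ICR 3 and NOD 1 than in the other libraries, and so is the solid line of Scgb2b10, Scgb2b15 and Scgb2b17. The group of Scgb2b9-ps, Scgb2b14-ps and Scgb2b16-ps, not drawn, varied 12.8-fold in another order.

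The region before the start was compared for a member of each kind, since Scgb2b12 and Scgb2b20 are close in sequence and differed in how steady they were. The windows run from 250 bases before to 50 bases after the start, from RefSeq on GRCm38.p6, written 5′ to 3′ on the strand of the gene. Scgb2b12 lies at chr7:32327196-32327495 on the minus strand and Scgb2b20 at chr7:33366270-33366569 on the minus strand. Capitals mark the motifs TATAA and TATAAA on the strand of the gene.
Scgb2b12 promoter window: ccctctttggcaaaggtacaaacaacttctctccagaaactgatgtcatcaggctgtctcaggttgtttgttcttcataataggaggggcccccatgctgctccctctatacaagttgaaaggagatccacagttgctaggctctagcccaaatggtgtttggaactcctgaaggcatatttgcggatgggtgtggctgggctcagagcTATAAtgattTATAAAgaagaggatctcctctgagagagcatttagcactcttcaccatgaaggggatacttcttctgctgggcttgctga
Scgb2b20 promoter window: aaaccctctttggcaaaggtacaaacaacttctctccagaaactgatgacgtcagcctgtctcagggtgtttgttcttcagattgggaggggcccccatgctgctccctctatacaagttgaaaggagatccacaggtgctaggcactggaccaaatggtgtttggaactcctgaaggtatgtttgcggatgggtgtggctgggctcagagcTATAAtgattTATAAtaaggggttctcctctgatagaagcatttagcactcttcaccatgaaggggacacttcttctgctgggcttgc

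Over 296 aligned bases these windows differed at 18 (93.9% identity), while the window of Scgb2b19 was 97.6% identical to that of Scgb2b12 and the window of Scgb2b7 98.7% identical to that of Scgb2b20. RefSeq windows matched 29 members. TATAAA was found on the strand of the gene in 14 of them and on either strand in 22, against 8.3 and 13.6% of 32851 mouse promoters of the same length. In Scgb1b27 and Scgb1b30 the last such match on the strand of the gene lay after the start. Several of the windows are close copies of each other, so the members are not separate cases in this comparison. TATAA, which every TATAAA contains, was found on the strand of the gene in 25, against 17.5% of all promoters, and no further member had it on the other strand alone (24.9% of all promoters on either strand). Members with and without the motif were found among both steady and variable ones. Forward TATAAA was present in the variable Scgb2b10, Scgb2b12, Scgb2b19, Scgb2b30 and Scgb2b33, and also in Scgb2b15, Scgb2b17, Scgb2b21, Scgb1b2 and Scgb1b24, which varied 1.69 to 5.17-fold between libraries. It was not in the window of Scgb2b7, Scgb2b20, Scgb2b2 or Scgb2b24, nor in those of Scgb2b11, Scgb1b12, Scgb2b26 and Scgb2b27, which varied 28.6 to 951-fold. These are matches of letters and not measured sites.

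The androgen-binding protein genes best known from saliva were near the bottom of the cluster's range. Scgb1b27, the salivary alpha chain, stood at 1.20, 16.7 and 7.99 CPM in ICR and 1.98, 5.42 and 0.65 in NOD/Ltj. Scgb2b27, the salivary gamma chain, stood at 1.33, 26.3 and 13.2 CPM in ICR and 0.89, 8.35 and 2.11 in NOD/Ltj. Scgb2b26, the salivary beta chain, stood at 0.82, 8.56 and 3.37 CPM in ICR and 1.00, 0.30 and 0.88 in NOD/Ltj. ICR 2 was highest in all 3 genes, followed by ICR 3, and the strains overlapped. The log2 fold changes were −1.67, −1.83 and −2.51, and none was called by edgeR (adjusted p = 0.55, 0.55 and 0.24). DESeq2 called Scgb2b26 lower (adjusted p = 0.0179), on 24 to 58 counts in NOD/Ltj and 57, 530 and 193 in ICR.

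Salivary gland markers varied between the same samples. Of the 28 markers, 16 could be tested and none was called, where 2.24% of all genes tested were called. The 28 summed to 2238, 3056 and 14153 CPM in ICR and 596, 3689 and 694 in NOD/Ltj. Bpifa2, a parotid secretory protein, stood at 293, 914 and 8888 CPM in ICR and 33.9, 1358 and 44.6 in NOD/Ltj. Smgc, a mucin of the sublingual and neonatal submandibular gland, was at 0 counts in all 6 libraries, which allows up to 12 counts per library, and Muc19, a sublingual mucin, reached 0.06 CPM at most. Car6, Amy1 and Dcpp1 were also highest in ICR 3, at 1904, 1849 and 778 CPM. The Klk1b kallikrein genes of the list that had counts followed another order and were highest in NOD 1. Klk1b1 stood at 25.2 CPM there and at most 0.70 elsewhere, Klk1b26 at 44.5 and at most 3.29, and Klk1b11 at 64.8 and at most 32.3. Klk1b3, Klk1b16 and Klk1b22 were at 0 counts in each library. The kallikrein Klk1 was instead highest in ICR 3, at 21.5 CPM, and stood at 0.07 CPM in NOD 1. The salivary sum was highest in ICR 3 and the 3 Scgb genes in ICR 2. The part of salivary tissue in their levels was not tested.

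Outside the members named above by the rule, 12 protein coding genes and 17 annotated pseudogenes could be tested. Among the 12, log2 fold changes ran from −2.07 to 0.49 with adjusted p of at least 0.17, the lowest for Scgb1b10. Scgb1b10 stood at 133, 167 and 83.9 CPM in ICR and 75.7, 29.0 and 42.5 in NOD/Ltj, with no overlap, a log2 fold change of −1.38 and an adjusted p of 0.17 by edgeR. DESeq2 called 2 members lower, this gene and Scgb2b26. Among the 17 pseudogenes, log2 fold changes ran from −1.36 to 4.98 with adjusted p of at least 0.34. The positive extreme, Scgb2b4-ps, rested on 1 library, with 531, 1399 and 936 counts over the ICR libraries and 79209, 180 and 224 over the NOD/Ltj ones. NOD 1 was also highest for the annotated pseudogenes Scgb2b6 (124152 counts, against 24681 to 64733 in the others) and Scgb2b28-ps (43924, against 9910 to 17405). The 16 members that could not be tested were 15 pseudogenes and Scgb1b30. Of these 16, 6 were at 0 counts in every library and the other 10 reached at most 2338 counts in a library, the highest being Scgb1b9-ps in ICR 2.

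Other genes of the gland were counted in the same fit. Of 32 other secreted lacrimal proteins that could be tested, none rose and 3 fell in NOD/Ltj, with a median log2 fold change of −0.63. Over all genes tested, 1.88% were called higher and 0.361% lower. The 3 were Prol1, a proline-rich tear protein, Odam, a secreted protein first known from tooth enamel, and Sval3, a relative of a seminal vesicle protein. Of 4 listed secretoglobins outside the cluster, none was abundant: Scgb1a1 and Scgb3a1, the club cell secretoglobin and a relative found in airways, were at 3.45 CPM or less, and Scgb1c1 and Scgb3a2 were at 0 counts.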

How the data were processed

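Polyadenylated RNA of 6 lacrimal gland samples was sequenced with 2 × 150 base paired reads from strand-specific libraries, per the labels' protocols. The authors deposited whole-number estimated counts per gene, not scaled between libraries, with fastp, StringTie and edgeR listed in the submitters' processing notes. The aligner, genome build, versions and counting step were not given in the sources used here. A test for plain counts was planned and was kept, since no value needed rounding. Low values were at multiples of 4 more often than the 1 in 4 of an even spread (30.4 to 31.7% of values up to 40). A count of 0 was therefore taken to allow 12 counts per library. Such limits cover counting error only. Any pair of libraries differed by far more than sampling noise (chi-square of at least 127 per degree of freedom), so each counted as 1 sample.

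Symbols came from GENCODE release 21, which matched 55141 of 55401 identifiers. The 260 without a symbol held at most 0.0106% of the counts. That reference is of C57BL/6J, and sequence or copy number differences of ICR or NOD/Ltj from it were not analysed here.

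The members, lists and tests were chosen with earlier results of these data known. Genes were fitted with edgeR 4.0.16 in R 4.3.3 (glmQLFit and glmQLFTest, TMM, filterByExpr, two-sided, no block), with Benjamini-Hochberg adjustment over 18537 genes. The SE is the absolute log2 fold change over the square root of F. The fit was tested on simulated data. Alternatives were DESeq2 1.42.0, limma-voom 3.58.1, other scalings and filters, a replicate block and each library left out. Summing near-identical members was added after seeing the data.

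Named with all values were tested members with at least 1% of their subfamily's counts in a strain, called members, and Scgb1b27, Scgb2b26 and Scgb2b27. Scgb1b10, the summed groups and other members named were chosen after their values were seen. Marker lists of Harderian and sebaceous gland (6 tested), skeletal muscle (5), ductal (7) and plasma cells (5) held no called gene. Of 7 T cell markers, 3 rose. The shares of all genes tested were 1.88% called higher and 0.361% called lower. Skeletal muscle markers summed to 119 CPM in ICR 3 and to at most 4.45 CPM in the others. Some sequences and 1 list of genes are not reported here.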

Additional observations from a re-analysis of the deposited data

How the results depend on the processing

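Scgb2b1 stayed called, at adjusted p from 2.19e-08 (DESeq2) to 0.0396 (replicate block), under every other tool, scaling, filter, the block and the summing of near-identical members. With 1 library left out, 0 to 1 members were called higher and 0 lower. The 1 called without NOD 2 was Scgb1b4-ps, at 0 counts in ICR, and not Scgb2b1. DESeq2 called 2 members lower (Scgb1b10 and Scgb2b26, the latter at a log2 fold change of −2.57), where edgeR's quasi-likelihood test called 0, with 2 lower at an unadjusted p under 0.05. The cause was not tested.

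Over all genes, 349 higher and 67 lower calls became 898 and 285 with DESeq2, 123 and 20 with limma-voom, and 226 and 40 with library totals alone, which moved the median of all genes by 0.12 on the log2 scale. Leaving out 1 library gave 11 to 406 higher and 2 to 118 lower, the fewest without NOD 3. The replicate block gave 129 and 25. Same-numbered samples did not deviate together (r = −0.12, −0.15 and 0.07, against −0.07 to 0.17 for different numbers). No pairing by number was seen, but 3 libraries per strain cannot exclude it.

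Scgb2b15 changed sign with limma-voom (−0.0057) and with the replicate block (−0.011). Without 1 library, 8 abundant members reached both signs: Scgb1b3 −0.063 to 0.52, Scgb1b20 −0.14 to 0.56, Scgb2b12 −2.50 to 0.17, Scgb2b15 −0.49 to 0.47, Scgb2b17 −0.98 to 0.076, Scgb2b20 −0.19 to 0.38, Scgb2b24 −0.68 to 0.015 and Scgb2b30 −2.40 to 0.12. Of 274 values for named members, 255 kept direction and side of the threshold. Log2 ratios of the sums ran from 0.06 to 0.70 (Scgb1b) and from −0.22 to 0.46 (Scgb2b), shares from 30.0 to 40.2% (ICR) and from 43.4 to 47.4% (NOD/Ltj), and the count ratio of Scgb2b to Scgb1b from 1.28 to 1.37 and from 0.997 to 1.08. Per kilobase that ratio was 0.931 in ICR and 0.711 in NOD/Ltj.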

Other observations

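Scgb2a2, a secretoglobin of another subfamily that lies outside the cluster and was chosen after its values were seen, stood at 4921, 44280 and 30243 CPM in ICR and 4185, 4015 and 10434 in NOD/Ltj. ICR 2 and ICR 3 were high and ICR 1 lay within the NOD/Ltj range, and the gene was not called (log2 fold change −2.09, adjusted p = 0.34 by edgeR). The pseudogene Scgb1b34-ps was, among the members, most like Scgb2b20 in sequence (91.8% identity), and stood at 26.1 to 43.8 CPM in ICR and 42.6 to 72.0 in NOD/Ltj. Counts of 3 pseudogenes were found in few libraries. Scgb1b4-ps had 1323 and 1222 counts in NOD 1 and NOD 3 and 0 elsewhere, Scgb1b16-ps had 1916 in ICR 2 and 1790 in NOD 1 and 0 elsewhere, and Scgb1b25-ps had 1421 in NOD 3 alone.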
